A study of Homo sapiens with 24 samples.

Results

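The AP-1 and EGR immediate early genes are 10 human genes for transcription factors that many cells switch on within the first hour after a stimulus: FOS, FOSB, FOSL1, FOSL2, JUN, JUNB, ATF3, MAFF, EGR1 and EGR3. Chromatin accessibility around them came from ATAC-seq. In this assay a transposase cuts and tags DNA where it is not covered by nucleosomes, so a more open region gives more reads. A region was counted when its midpoint lay within 50 kb of the hg38 interval of one of the genes, which gave 196 of the 189403 peaks in the authors' count table. Of these, 184 had enough reads to be tested, and no peak fell to more than 1 of the 10 genes.

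AP-1 is a dimer of a FOS-family and a JUN-family protein, to which ATF and small MAF proteins also contribute, and it binds short palindromic sites in enhancers and promoters. The EGR proteins are zinc-finger factors that bind GC-rich sites. The genes of both families are held ready for transcription in resting cells, and kinase signalling through SRF, ELK and CREB proteins switches them on; estrogen is known to induce FOS and EGR3 in breast cancer cells.

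The cells were T47D, an established human luminal breast cancer line that carries the estrogen receptor, and all 24 libraries came from this one line with no genetic change named. There were 6 groups of 4 libraries, each treated for 1 h. Of the groups grown for 1 day in complete medium with whole fetal bovine serum, 1 group each received 100 nM fulvestrant, 100 nM raloxifene or 100 nM tamoxifen, and the complete vehicle group received 0.1% DMSO. Of the groups kept for 3 days in medium without phenol red and with charcoal-stripped serum, here called starved, 1 group received 1 nM estradiol and the starved vehicle group received 0.1% DMSO. Estradiol activates the receptor, fulvestrant blocks it and leads to its degradation, and raloxifene and tamoxifen are selective modulators that block it in breast cells. The media differed in serum, phenol red, cells seeded and days of culture together, and these cannot be told apart. The labels do not say that the replicates came from separate cultures, so the p-values below measure the spread between these libraries.

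The libraries held from 434598 to 12140005 counts in all peaks, and 2 of them stood apart in depth. Fulvestrant replicate 4 had the 434598 counts, of which 731 lay in the member peaks, and 49 of the member peaks had no count in it; 1 count there equals 1.57 CPM, the count set to a common library total. Starved vehicle replicate 3 was next with 2422981 counts and 12 member peaks at 0, and every other library had at least 5448411. Member peaks took 0.168% of the counts in fulvestrant replicate 4 and 0.198% to 0.224% in the other 23 libraries. Complete vehicle replicates 3 and 4 carry a treatment entry that names fulvestrant while their titles and descriptions name DMSO. They are used here as titled. Every comparison with complete vehicle rests on them, and some of these results, not all, are also given without them. A change in how open a region was in each cell and a change in the share of cells in which it was open cannot be told apart in bulk libraries. Luminal genes had accessible regions, the strongest peak within 1 kb ranging in mean from 3.85 CPM at TFF1 to 51.9 CPM at KRT19. Of the basal genes, KRT5 and KRT14 had none and the strongest peak at TP63 had 21.0 CPM, and the strongest peaks of the mesenchymal genes ran from 5.41 CPM at TWIST1 to 40.2 CPM at COL1A1, overlapping the luminal range.

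The sequence just before the transcription start is shown for 4 of the genes, EGR1 and MAFF because their windows hold matches to the motifs searched, and FOS and JUN because they encode the classic partners in AP-1. Each is the 250 bases before the start from RefSeq (GRCh38.p14), read 5′ to 3′ on the gene's strand. The windows are chr5:138465229-138465478 on the plus strand for EGR1, chr22:38201744-38201993 on the plus strand for the first start of MAFF, chr14:75278578-75278827 on the plus strand for FOS and chr1:58784048-58784297 on the minus strand for JUN. Capitals mark motif matches.
EGR1: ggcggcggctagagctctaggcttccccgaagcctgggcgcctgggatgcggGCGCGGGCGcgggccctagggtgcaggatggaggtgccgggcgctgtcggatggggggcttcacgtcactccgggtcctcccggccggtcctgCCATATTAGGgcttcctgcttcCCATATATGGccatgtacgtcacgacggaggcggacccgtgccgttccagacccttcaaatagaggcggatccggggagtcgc
MAFF: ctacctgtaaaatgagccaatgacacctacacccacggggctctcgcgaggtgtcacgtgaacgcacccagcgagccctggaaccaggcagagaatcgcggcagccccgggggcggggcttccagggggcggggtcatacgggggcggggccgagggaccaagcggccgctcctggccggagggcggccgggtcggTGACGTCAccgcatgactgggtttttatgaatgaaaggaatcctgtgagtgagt
FOS: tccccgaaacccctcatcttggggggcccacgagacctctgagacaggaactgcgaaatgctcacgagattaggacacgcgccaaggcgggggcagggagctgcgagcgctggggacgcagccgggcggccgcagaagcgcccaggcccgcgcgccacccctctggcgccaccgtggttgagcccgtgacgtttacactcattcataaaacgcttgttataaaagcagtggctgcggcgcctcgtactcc
JUN: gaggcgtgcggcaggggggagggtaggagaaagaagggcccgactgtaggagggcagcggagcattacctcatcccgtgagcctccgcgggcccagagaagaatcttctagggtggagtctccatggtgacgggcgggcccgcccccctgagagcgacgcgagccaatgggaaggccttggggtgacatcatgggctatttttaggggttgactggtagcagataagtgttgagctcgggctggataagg

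Motifs were searched as exact patterns on both strands of the 250-base windows, so variants and sites farther from the start were not covered. In EGR1 the capitals are 1 EGR site, GCGNGGGCG, written GCGCGGGCG at positions -198 to -190 from the start, and 2 CArG boxes, the element bound by SRF, written CCATATTAGG at -105 to -96 and CCATATATGG at -83 to -74. In MAFF the capitals are the cyclic AMP response element TGACGTCA, at -54 to -47. Across the 35116 promoter windows of the same length in the table, a CArG box was present in 1.16%, TGACGTCA in 1.65% and GCGNGGGCG in 8.41%. The AP-1 site TGANTCA, present in 6.57% of all windows, and the estrogen response element GGTCANNNTGACC, present in 0.0399%, matched none of the 10 windows of these genes that the table holds. No promoter window was available for FOSL1 and EGR3, so their promoters were not searched.

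The 10 neighbourhoods differed in size and in company. FOSL1 had the most peaks within 50 kb, at 27, and EGR3 the fewest, at 12. FOS had 23, FOSB 21, FOSL2 20, JUN 14, JUNB 25, ATF3 21, MAFF 20 and EGR1 13. Only 19 of the 196 peaks lay inside a gene interval; 44 more lay within 10 kb and 133 at 10 to 50 kb. FOS, FOSL2 and JUN had no other protein-coding gene within 50 kb, whereas FOSL1 had 10 and JUNB had 8, and for 87 of the 196 peaks the member gene was the nearest one. Peaks were 200 to 560 bp wide, with a median of 232.5 bp. Set to peak width, their mean signal ranged from 1.71 to 363 CPM per kb with a median of 23 CPM per kb, and the highest was a region 19.7 kb upstream of FOS (chr14:75259078-75259279).

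**Figure D1:**
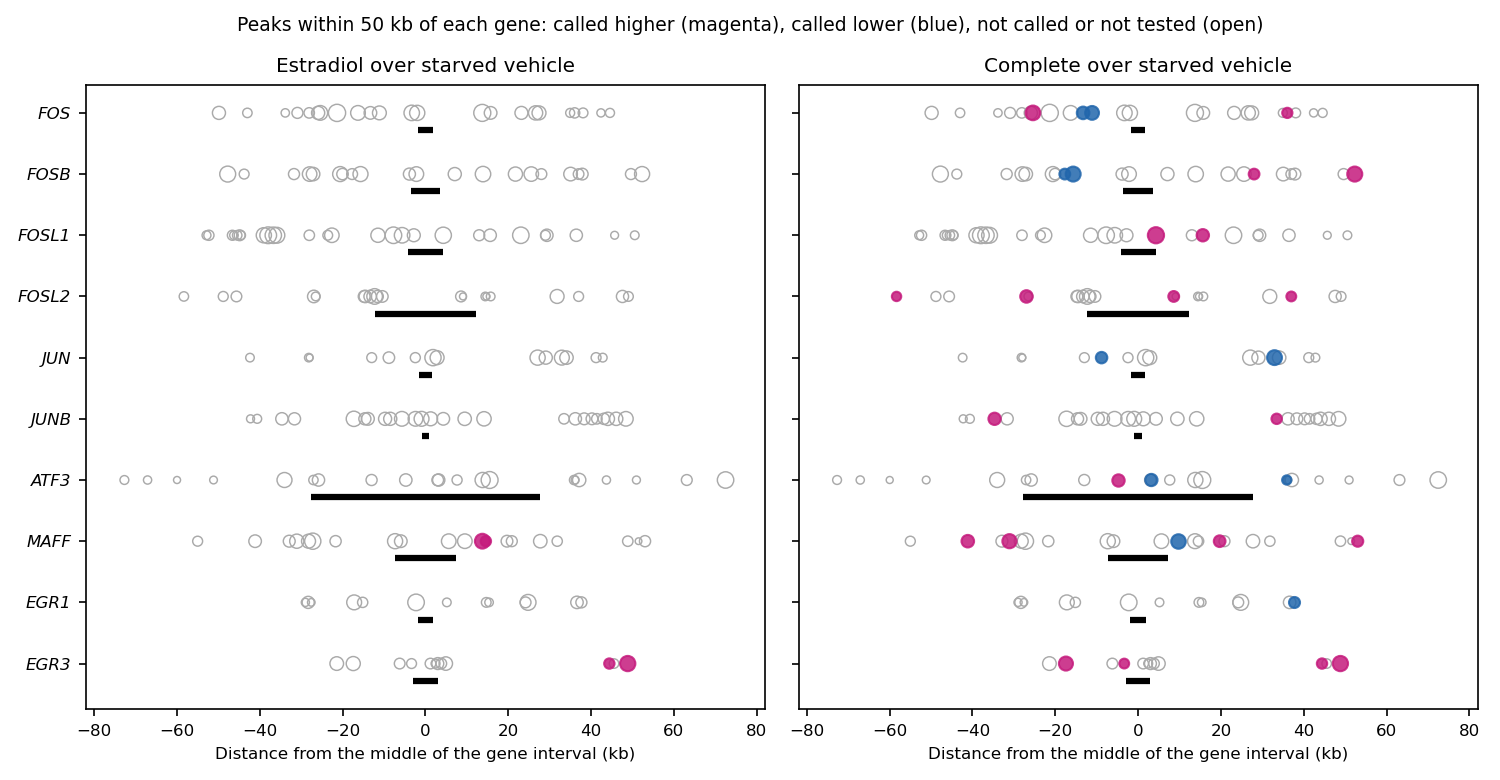
Peaks within 50 kb of each of the 10 genes, placed by distance in kb from the middle of the gene interval (black bar), with symbol size rising with mean CPM. Estradiol over starved vehicle (left) had 4 called peaks, all higher and near MAFF and EGR3, and complete vehicle over starved vehicle (right) had 21 called higher (magenta) and 10 called lower (blue) of the 184 tested; open symbols were not called or not tested.

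The lead peak of each gene was open in every group. It is the strongest peak that overlaps the promoter window or, for FOSL1, ATF3 and EGR3, the strongest within 1 kb of the gene interval; for ATF3 it lies inside the gene. Set to width, EGR1 (chr5:138465003-138465235) led with 220 CPM per kb over the 24 libraries, close to ATF3 (chr1:212608440-212608726) with 216 CPM per kb. JUN (chr1:58784123-58784352) had 187, FOSL1 (chr11:65900456-65900741) 152, FOSL2 (chr2:28392713-28392919) 150 and FOS (chr14:75278420-75278657) 106 CPM per kb. JUNB (chr19:12791333-12791576, where HOOK2 is the nearest gene) had 87.3, MAFF (chr22:38201726-38202118) 61.0, FOSB (chr19:45467599-45467827) 24.8 and EGR3 (chr8:22693432-22693661) 23.3 CPM per kb. The 2 weakest, FOSB and EGR3, were thus about as open as the median member peak.

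After 1 h of estradiol none of the 10 lead peaks was called. EGR1, whose protein binds GC-rich promoters, had 49.7, 48.5, 56.6 and 51.3 CPM in the estradiol libraries, against 51.2, 45.1, 38.9 and 50.3 CPM in the starved vehicle libraries. FOS had 30.5, 22.4, 22.2 and 25.8 CPM in the estradiol libraries, against 25.1, 24.6, 30.9 and 23.1 CPM in the starved vehicle libraries. JUN had 39.9, 40.1, 40.7 and 40.9 CPM in the estradiol libraries, against 39.6, 45.1, 38.1 and 44.4 CPM in the starved vehicle libraries. The 2 groups overlapped at all 3 genes. MAFF, a small MAF protein without an activation domain, had 25.0, 29.3, 25.8 and 28.5 CPM with estradiol, against 23.7, 26.2, 20.8 and 23.9 CPM with starved vehicle, and EGR3 had 3.00, 5.33, 2.98 and 2.7 CPM with estradiol, against 3.11, 4.85, 4.01 and 4.00 CPM with starved vehicle. Over the 10 lead peaks the log2 fold change of estradiol over starved vehicle ran from -0.22 (FOSB) to 0.17 (MAFF), the 95% intervals reached from -0.69 to 0.42, and 0 of the 10 had even an unadjusted p under 0.05.

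**Figure D2:**
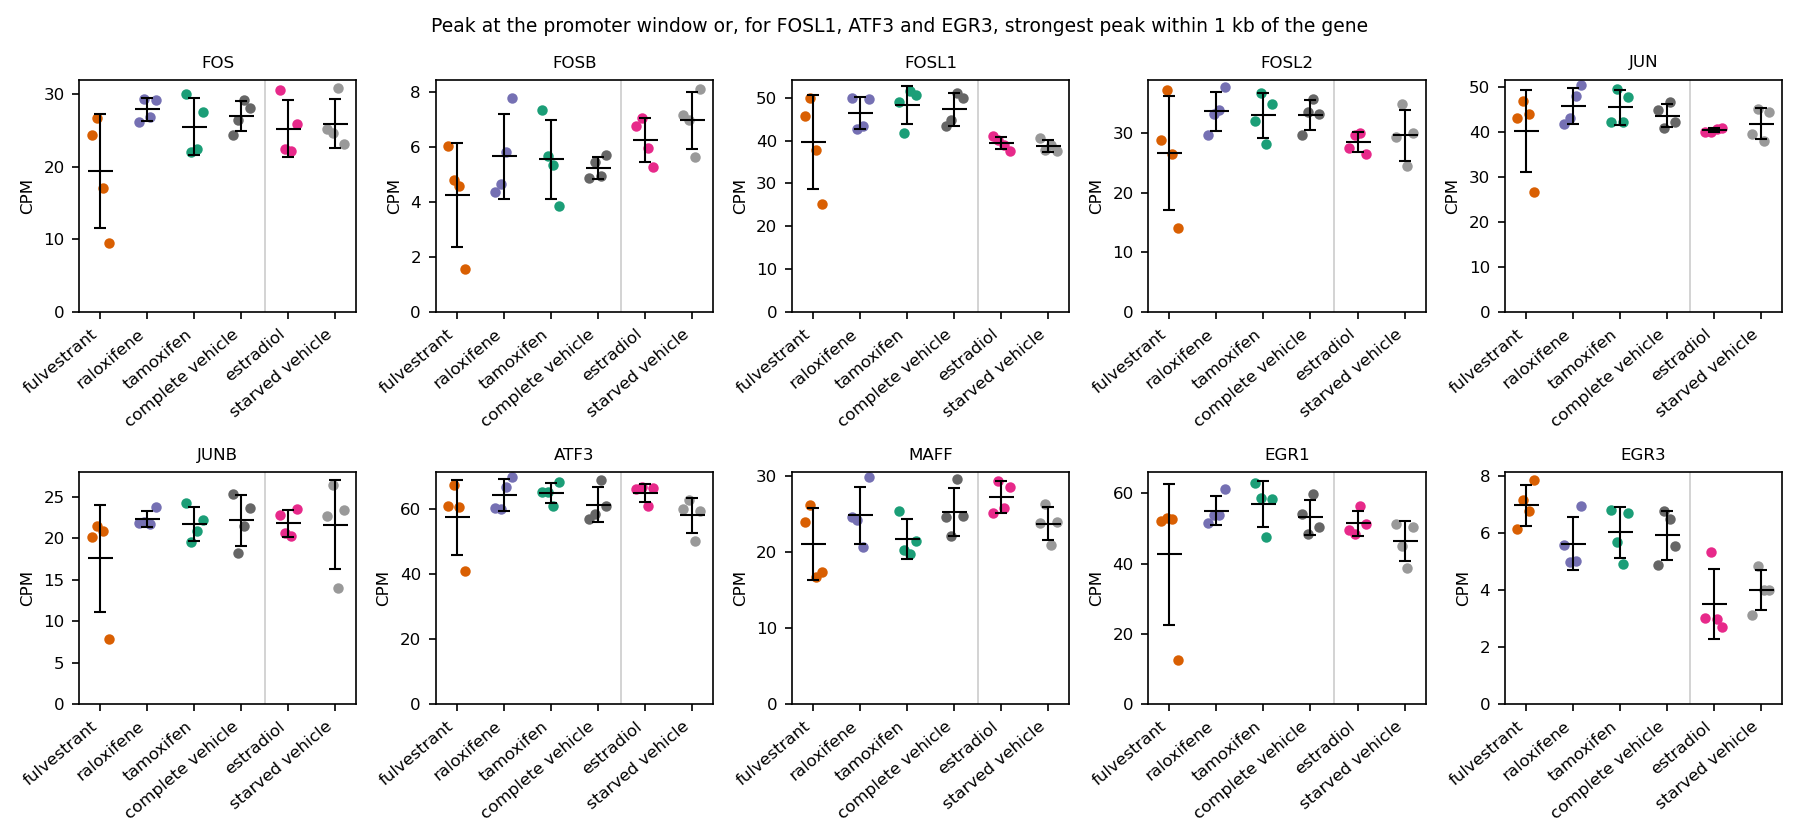
CPM of the lead peak of each gene in every library (points), by group, with mean and SD; the line separates complete medium on the left from starved medium on the right. The estradiol and starved vehicle points overlap at EGR1, FOS and JUN, and the single low fulvestrant point at EGR1 (12.6 CPM) is the shallow replicate 4.

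Estradiol instead raised 4 peaks that lay away from the gene starts, 2 near MAFF and 2 near EGR3, and lowered none. That is 2.17% of the 184 tested member peaks higher, where 0.813% of all 156745 tested peaks were called higher and 0.0223% lower by edgeR's quasi-likelihood test (Benjamini-Hochberg adjusted p under 0.05). All 4 lay inside the interval of a neighbouring gene: the MAFF pair in TMEM184B and the EGR3 pair in PEBP4. No member peak of FOS, FOSB, FOSL1, FOSL2, JUN, JUNB, ATF3 or EGR1 was called. The median log2 fold change was 0.030 over the tested member peaks and -0.0088 over all tested peaks. In 10 member peaks (5.43%, against 2.49% of all tested peaks) every estradiol library was above every starved vehicle library, and in 2 (1.09%, against 1.33%) every one was below.

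The one with the smallest p lay 6.475 kb beyond the 3′ end of MAFF (chr22:38222859-38223114). It had 28.9, 30.8, 32.3 and 28.5 CPM in the estradiol libraries, against 19.7, 18.5, 13.6 and 16.8 CPM in the starved vehicle libraries. Every estradiol library was higher than every starved vehicle library. Estradiol raised it 1.70-fold (95% interval 1.41 to 2.05; log2 fold change 0.77, SE 0.13; edgeR adjusted p = 2.73e-05). The complete vehicle libraries had 21.3, 16.4, 19.8 and 18.7 CPM, about the starved vehicle level (log2 fold change of complete over starved vehicle 0.11, edgeR adjusted p = 0.678). Estradiol was also above complete vehicle there (log2 fold change 0.66, edgeR adjusted p = 3.70e-05), a comparison across media that shares the estradiol libraries. The call over starved vehicle held in all 21 alternatives run, with log2 fold changes from 0.64 to 0.93.

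A weaker peak stood 7.32 kb beyond MAFF (chr22:38223735-38223935). It had 2.88, 4.69, 3.40 and 5.14 CPM with estradiol, against 0.922, 1.74, 4.41 and 1.37 CPM with starved vehicle. The high starved vehicle value came from the shallow replicate 3, where it rests on 11 counts, and it made the groups overlap. Estradiol raised the peak 2.48-fold (95% interval 1.58 to 3.90; log2 1.31, SE 0.31; edgeR adjusted p = 0.0101). With both shallow libraries left out the log2 fold change was 1.57 (edgeR adjusted p = 0.00186). The call was lost without starved vehicle replicate 1 (edgeR adjusted p = 0.161) or 4 (0.128), without estradiol replicate 2 (0.0592) or 4 (0.0655), and with DESeq2 (adjusted p = 0.119).

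EGR3 encodes a zinc-finger factor that estrogen is known to induce. Its stronger estradiol-raised peak lay 45.9 kb from the gene (chr8:22739277-22739531) and had 30.9, 25.8, 28.1 and 26.0 CPM with estradiol, against 16.1, 17.3, 17.2 and 18.7 CPM with starved vehicle. The groups did not overlap, and estradiol raised the peak 1.59-fold (95% interval 1.31 to 1.92; log2 0.67, SE 0.13; edgeR adjusted p = 0.000524). Within replicates 3 and 4 alone the log2 fold change was 0.57 and not called (edgeR adjusted p = 0.281). Complete vehicle libraries were at 31.6, 32.5, 28.1 and 30.4 CPM, overlapping the estradiol libraries, and the log2 fold change of estradiol over complete vehicle was -0.14 (95% interval -0.38 to 0.10, edgeR adjusted p = 0.440). At this region the estradiol and complete vehicle libraries were thus both above starved vehicle, unlike at the MAFF peak.

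The other EGR3 peak, 41.5 kb from the gene (chr8:22734843-22735090), had few counts. The estradiol libraries had 9, 21, 25 and 17 counts there, or 1.13, 2.24, 2.13 and 2.19 CPM, against 6, 2, 0 and 5 counts, or 0.692, 0.249, 0 and 0.455 CPM, in the starved vehicle libraries. The groups did not overlap, and the fitted fold change was 4.41 (95% interval 2.11 to 9.21; log2 2.14, SE 0.51; edgeR adjusted p = 0.0101). The call was lost without starved vehicle replicate 2 (edgeR adjusted p = 0.0815) or 4 (0.0698), and without starved vehicle replicate 4 only 2 of the 4 member calls were left. Complete vehicle was the highest of these 3 groups, at 3.24, 6.76, 3.19 and 3.36 CPM, and exceeded starved vehicle by 3.19 on the log2 scale (SE 0.43; edgeR adjusted p = 1.42e-08; 3.47 without the complete vehicle libraries with the conflicting label). Estradiol stayed below complete vehicle (log2 fold change -1.05, edgeR adjusted p = 0.00531), a call that was lost without complete vehicle replicate 2 (-0.73, edgeR adjusted p = 0.0988).

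**Figure D3:**
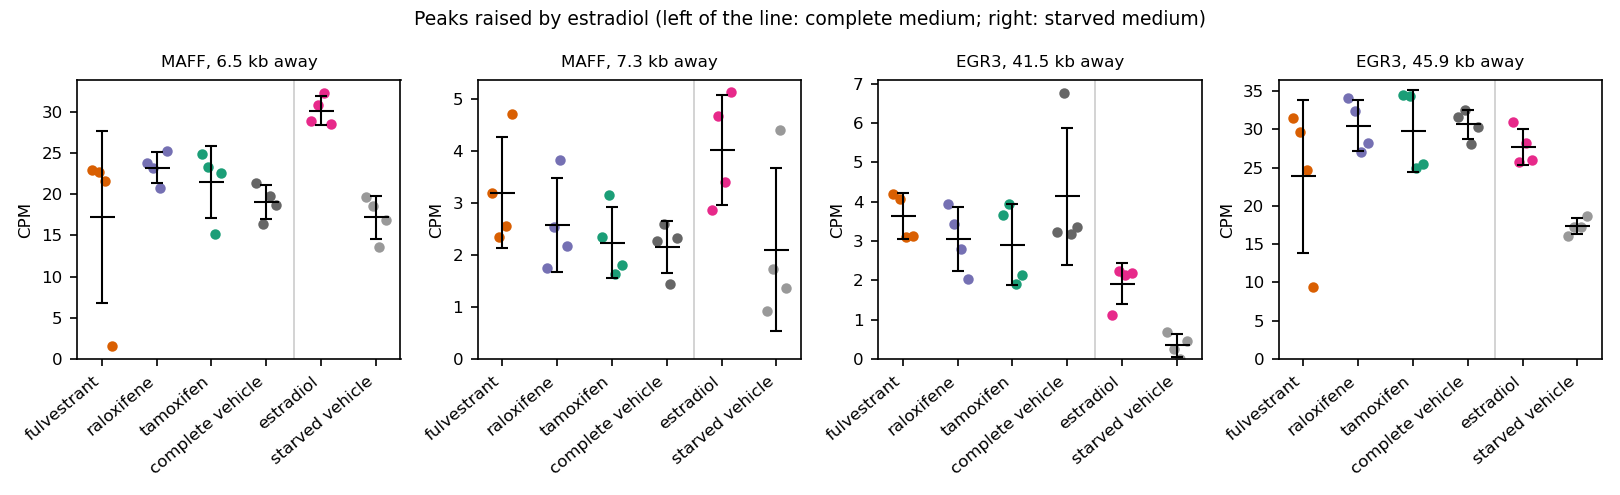
CPM in every library (points) of the 4 peaks that estradiol raised near MAFF and EGR3, by group, with mean and SD; the line separates complete medium (left) from starved medium (right). At the MAFF peak 6.475 kb from the gene the estradiol libraries (28.5 to 32.3 CPM) lie above every other library, whereas at the EGR3 peak 45.9 kb away the complete vehicle libraries (28.1 to 32.5 CPM) overlap the estradiol libraries.

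The 2 uncalled peaks with the smallest p for estradiol lay near FOS and MAFF. A region 26.4 kb upstream of FOS (chr14:75252360-75252560) had a log2 fold change of 0.85 (edgeR adjusted p = 0.190). A region 12.4 kb beyond MAFF (chr22:38228809-38229060) had 4.50, 3.30, 3.91 and 4.37 CPM with estradiol, against 2.07, 2.61, 3.21 and 1.91 CPM with starved vehicle, which did not overlap, yet its log2 fold change of 0.82 missed the threshold (edgeR adjusted p = 0.228).

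Summed over all peaks within 50 kb, the neighbourhoods of MAFF and EGR3 were more open with estradiol and the other 8 were not called. Both sums include the called peaks described above, and how far those peaks carry them was not tested. The median log2 fold change of the single tested peaks was 0.17 near MAFF and 0.11 near EGR3. The CPM of these sums is set to the total over all gene neighbourhoods, where a peak counts once for each gene within 50 kb. It is therefore lower than the CPM of the same peaks added up, and serves only to compare libraries. The MAFF sum was 102, 102, 102 and 107 CPM with estradiol, against 92.6, 93.1, 79.7 and 88.7 CPM with starved vehicle, and the EGR3 sum was 38.3, 37.0, 36.3 and 35.5 CPM, against 28.6, 31.7, 29.3 and 30.8 CPM. Neither pair of groups overlapped. The log2 fold change was 0.20 for MAFF (SE 0.05, edgeR adjusted p = 0.0185) and 0.28 for EGR3 (SE 0.06, edgeR adjusted p = 0.00394), in a test over 19687 gene neighbourhoods of which 1.55% were called higher and 0.0356% lower. The MAFF call was lost without starved vehicle replicate 3 (edgeR adjusted p = 0.0545) or 4 (0.0899) and without estradiol replicate 4 (0.0899). Within 10 kb of EGR3 the log2 fold change of the sum was -0.0066 (edgeR adjusted p = 0.999). Within 100 kb it was 0.11 (edgeR adjusted p = 0.366), so of the 3 windows only that of 50 kb gave the EGR3 call. The EGR3 call was also lost within replicates 3 and 4 (0.24, edgeR adjusted p = 0.303). That of MAFF was lost within replicates 1 and 2 (0.14, edgeR adjusted p = 0.236).

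**Figure D4:**
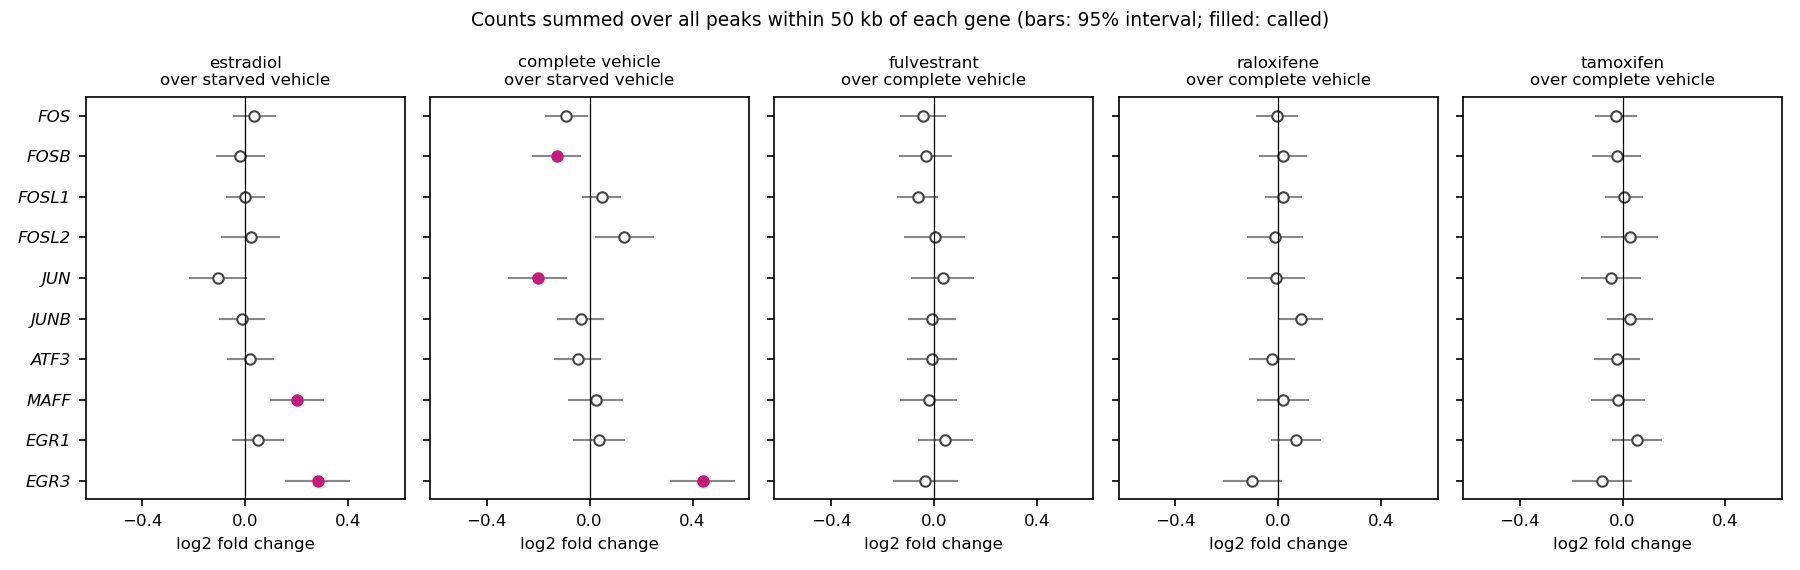
Log2 fold change, with 95% intervals, of the counts summed over all peaks within 50 kb of each gene, in 5 comparisons; filled symbols were called at an edgeR adjusted p under 0.05. Estradiol over starved vehicle is called at MAFF (0.20) and EGR3 (0.28), and the 3 antagonist comparisons have no called gene.

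Peaks that differed between the vehicle groups of the 2 media lay near all 10 genes, in a number close to the background: 31 of the 184 tested member peaks were called in either direction (16.8%, against 17.8% of all tested peaks). Of the 184 tested member peaks, 21 were higher in complete vehicle than in starved vehicle (11.4%, against 7.93% of all tested peaks) and 10 were lower (5.43%, against 9.91%), by the edgeR test. In 22 member peaks every complete vehicle library was above every starved vehicle library (12%, against 8.38% of all tested peaks), and in 7 every one was below (3.8%, against 8.31%). The called counts were 15 and 7 without the complete vehicle libraries with the conflicting label, and 18 and 10 without the shallow libraries. The lower count was 6 without starved vehicle replicate 1 or replicate 2. Peaks higher in complete vehicle were most numerous at FOSL2, MAFF and EGR3, with 4 each, of which EGR3 and FOSL2 had none lower and MAFF 1. FOS and FOSB each had 2 higher and 2 lower, ATF3 1 higher and 2 lower, and JUN 0 higher and 2 lower. Of the 31 calls 22 lay at 10 to 50 kb, as did 124 of the 184 tested peaks. The member gene was the nearest gene for 13 of the 31.

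FOS and JUN, the founding pair of AP-1, each had 2 regions that were less open in complete vehicle, and FOS also had 2 that were more open. At 9.42 kb upstream of FOS (chr14:75269269-75269547) the complete vehicle libraries had 12.8, 7.67, 7.82 and 9.78 CPM, against 20.1, 21.3, 19.2 and 19.6 CPM in the starved vehicle libraries. The log2 fold change was -1.08 (SE 0.16, edgeR adjusted p = 1.17e-07), and -0.93 (edgeR adjusted p = 0.000309) without the libraries with the conflicting label. Estradiol libraries had 17.4, 19.5, 21.5 and 19.5 CPM, the starved vehicle level (log2 fold change -0.04, edgeR adjusted p = 1). A neighbouring region 11.6 kb upstream (chr14:75267112-75267373) had 6.92, 7.15, 5.56 and 5.55 CPM in complete vehicle, against 12.9, 9.08, 12.4 and 12.3 CPM in starved vehicle, a log2 fold change of -0.88. Both regions separated the vehicle groups in every library. Another FOS region was higher in complete vehicle: the peak 34.3 kb downstream (chr14:75316426-75316674) had a log2 fold change of 1.29 (edgeR adjusted p = 0.0120), a call lost without complete vehicle replicate 1 or starved vehicle replicate 1 or 4.

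At 7.20 kb beyond the 3′ end of JUN (chr1:58773456-58773728) the complete vehicle libraries had 2.7, 1.43, 4.32 and 3.79 CPM, against 8.18, 7.33, 4.01 and 9.74 CPM in starved vehicle. Only the shallow starved vehicle replicate 3 reached the complete vehicle range. The log2 fold change was -1.38 (SE 0.24, edgeR adjusted p = 4.67e-06) and -1.91 without the libraries with the conflicting label (edgeR adjusted p = 6.51e-06). With estradiol it had 5.25, 6.93, 7.57 and 6.30 CPM, all above complete vehicle (log2 fold change 1.09, edgeR adjusted p = 0.000405).

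FOSB and ATF3 had calls in both directions. The FOSB region 14.1 kb upstream (chr19:45453771-45453987), nearest to the repair gene ERCC1, had 2.16, 1.69, 2.88 and 2.63 CPM in complete vehicle, against 7.49, 7.96, 2.41 and 4.00 CPM in starved vehicle (edgeR log2 fold change -1.32, SE 0.30, adjusted p = 0.000631). The 2 low starved vehicle libraries are replicates 3 and 4, and within replicates 3 and 4 the log2 fold change was -0.41 (edgeR adjusted p = 0.623). Inside ATF3, a stress-induced partner of AP-1, a region (chr1:212596164-212596416) had 5.08, 5.2, 3.60 and 3.21 CPM in complete vehicle, against 12.3, 14.7, 4.41 and 8.19 CPM in starved vehicle. Its log2 fold change was -1.32 (edgeR adjusted p = 0.00648), and -1.05 without the libraries with the conflicting label, which was not called (edgeR adjusted p = 0.105). Another region inside ATF3 (chr1:212588223-212588473) was higher, with 7.24, 8.58, 8.33 and 7.15 CPM in complete vehicle, against 5.07, 3.48, 4.01 and 4.64 CPM in starved vehicle, and no overlap (log2 fold change 0.83, edgeR adjusted p = 0.00640). At FOSB a region 48.7 kb away, inside VASP (chr19:45523780-45524001), had 32.4, 21.1, 25.7 and 29.2 CPM in complete vehicle, against 23.3, 17.0, 18 and 19.3 CPM in starved vehicle. Its log2 fold change was 0.46 (edgeR adjusted p = 0.00553), a call lost without complete vehicle replicate 1 (0.36, edgeR adjusted p = 0.0671).

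FOSL2, which encodes a FOS protein that lacks the strong activation domain, had 4 higher peaks and none lower. At 24.8 kb beyond it (chr2:28441904-28442235) the complete vehicle libraries had 2.81, 3.38, 3.19 and 3.07 CPM, against 0.231, 0.497, 1.60 and 0.728 CPM in starved vehicle. The groups did not overlap (log2 fold change 2.35, SE 0.42, edgeR adjusted p = 1.09e-05). At 14.7 kb upstream (chr2:28377971-28378285) they had 9.84, 8.97, 7.31 and 6.13 CPM, against 3.23, 2.24, 4.41 and 3.91 CPM (log2 fold change 1.29, edgeR adjusted p = 1.14e-05). Estradiol libraries had 3.75, 3.84, 5.10 and 3.86 CPM at this upstream region, below every complete vehicle library (log2 fold change -0.95, edgeR adjusted p = 0.000412).

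At MAFF the region 12.4 kb beyond the gene named above had 6.81, 7.54, 6.79 and 6.13 CPM in complete vehicle, against 2.07, 2.61, 3.21 and 1.91 CPM in starved vehicle, with no overlap (log2 fold change 1.59, SE 0.24, edgeR adjusted p = 3.43e-07). Another MAFF region, 2.25 kb beyond the gene (chr22:38218643-38218883), ran the other way. It had 15.1, 15.9, 18.7 and 14.2 CPM in complete vehicle, against 24.3, 22.0, 12 and 22.0 CPM in starved vehicle, where the low value is the shallow replicate 3 (log2 fold change -0.43, edgeR adjusted p = 0.0193). This call was lost without complete vehicle replicate 1 or 4, without starved vehicle replicate 1 or 4, and without the libraries with the conflicting label (-0.47, edgeR adjusted p = 0.0597). With estradiol it had 25.9, 26.4, 26.2 and 28.2 CPM, above every complete vehicle library (log2 fold change 0.72, edgeR adjusted p = 1.07e-05).

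EGR1 had 1 called peak, and FOSL1 and JUNB had 2 each. That of EGR1 lay 35.7 kb away, nearest to ETF1 (chr5:138504929-138505155), with 2.05, 3.51, 2.98 and 3.65 CPM in complete vehicle, against 5.30, 6.46, 1.20 and 5.82 CPM in starved vehicle. Its log2 fold change was -0.86 (edgeR adjusted p = 0.0102), and the call was lost without complete vehicle replicate 1 (-0.70, edgeR adjusted p = 0.0663) or starved vehicle replicate 2 (-0.76, edgeR adjusted p = 0.0564). FOSL1 had a higher peak 11.4 kb away, nearest to C11orf68 (chr11:65911773-65912061), with 8.87, 6.50, 5.25 and 7.59 CPM in complete vehicle, against 4.61, 3.11, 4.41 and 3.28 CPM in starved vehicle (log2 fold change 0.92, edgeR adjusted p = 0.00195). JUNB, an AP-1 subunit that can restrain JUN, had a higher peak 32.5 kb away near RTBDN (chr19:12825655-12826047; log2 fold change 1.22, edgeR adjusted p = 0.00986), which was lost without starved vehicle replicate 4 (0.91, edgeR adjusted p = 0.108).

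Among the 10 lead peaks that of FOSL1 was the one called between the vehicle groups. It had 43.4, 44.8, 51 and 50.1 CPM in complete vehicle, against 40.6, 37.9, 38.9 and 37.6 CPM in starved vehicle (log2 fold change 0.29, edgeR adjusted p = 0.0355), and 0.20 without the libraries with the conflicting label, which was not called (edgeR adjusted p = 0.327). The call was also lost without starved vehicle replicate 2 or 4 and without complete vehicle replicate 3 or 4. Over all 10 the log2 fold change ran from -0.49 (FOSB) to 0.57 (EGR3). The EGR3 lead peak had 4.87, 6.76, 6.48 and 5.55 CPM in complete vehicle, against 3.11, 4.85, 4.01 and 4.00 CPM in starved vehicle, which did not overlap but missed the threshold (edgeR adjusted p = 0.0673). The FOSB lead peak had 4.87, 5.46, 4.94 and 5.69 CPM in complete vehicle, against 7.15, 6.96, 5.61 and 8.10 CPM in starved vehicle, which overlapped in 1 library and was not called.

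Summed over 50 kb, EGR3 was more open in complete than in starved vehicle, at 40.6, 43.6, 39.5 and 40.9 CPM, against 28.6, 31.7, 29.3 and 30.8 CPM (log2 fold change 0.44, edgeR adjusted p = 3.17e-07). Within 10 kb of EGR3 the log2 fold change was 0.12 and not called (edgeR adjusted p = 0.431). JUN was less open, at 60.7, 60.8, 58.4 and 53.7 CPM, against 69.9, 70.9, 61.9 and 63.9 CPM (log2 fold change -0.20, edgeR adjusted p = 0.00502), with every complete vehicle library below every starved vehicle library. Without the libraries with the conflicting label the JUN value was -0.15 and not called (edgeR adjusted p = 0.128). FOSB averaged 115 ± 5.88 CPM in complete vehicle and 126 ± 4.08 CPM in starved vehicle (SD, n = 4 each; log2 fold change -0.13, edgeR adjusted p = 0.0348), a call lost without any of complete vehicle replicates 2 and 4 and starved vehicle replicates 1, 2 and 3. Of all 19687 neighbourhoods, 11.6% were called higher and 12.9% lower.

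Set against complete vehicle, estradiol libraries showed 16 higher and 14 lower member peaks (8.7% and 7.61%, against 9.39% and 7.24% of all tested peaks), close to the background in both directions. This comparison differs in medium as well as in agent and shares its libraries with the comparisons above. Without the libraries with the conflicting label the counts were 6 and 8, and without complete vehicle replicate 3 the higher count was 10. The FOS region 9.42 kb upstream had a log2 fold change of 1.04 (edgeR adjusted p = 1.70e-07) and the FOSL2 region 24.8 kb beyond the gene one of -1.51 (edgeR adjusted p = 0.000715). Of the 50 kb sums, FOS averaged 157 ± 6.92 CPM with estradiol and 144 ± 4.72 CPM with complete vehicle (SD, n = 4 each; log2 fold change 0.13, edgeR adjusted p = 0.0144), and MAFF and EGR3 were also called, at 0.18 (adjusted p = 0.00624) and -0.16 (adjusted p = 0.0329), where 11.6% of all neighbourhoods were called higher and 10.4% lower. Without the libraries with the conflicting label none of these 3 was called, at log2 fold changes of 0.13 for FOS, 0.17 for MAFF and -0.19 for EGR3 (edgeR adjusted p = 0.0780, 0.0575 and 0.0626), and the FOS call was also lost without complete vehicle replicate 3 or estradiol replicate 1. The EGR3 call was lost without any of complete vehicle replicates 1, 2 and 4 and estradiol replicates 2, 3 and 4. The EGR3 lead peak, the only one of the 10 called here, had 3.00, 5.33, 2.98 and 2.7 CPM with estradiol, against 4.87, 6.76, 6.48 and 5.55 CPM with complete vehicle (log2 fold change -0.74, edgeR adjusted p = 0.0114). It was not called without estradiol replicate 3 (-0.65, edgeR adjusted p = 0.0600) or without the libraries with the conflicting label (-0.71, edgeR adjusted p = 0.0826).

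**Figure D5:**
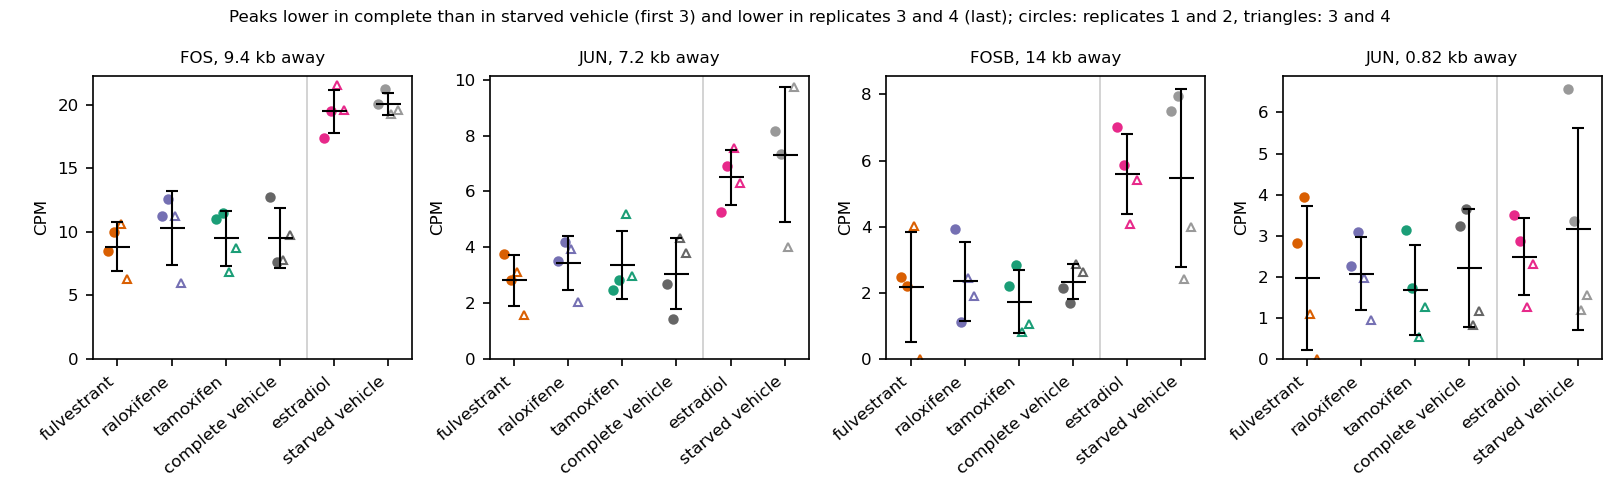
CPM by group and library (circles, replicates 1 and 2; triangles, replicates 3 and 4) for 3 peaks lower in complete than in starved vehicle, near FOS (9.42 kb), JUN (7.20 kb) and FOSB (14.1 kb), and for the JUN peak 0.82 kb beyond the gene, lower in replicates 3 and 4. The FOS peak separates the media in every replicate, whereas the FOSB peak does so mainly in replicates 1 and 2.

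With the 3 antagonists, at the same dose and time, no member peak passed the test. Against complete vehicle 0 of 184 were called for fulvestrant (0% of all tested peaks higher and 0% lower), 0 for raloxifene (0.000638% higher and 0% lower) and 0 for tamoxifen (0% and 0%) by the edgeR test, and DESeq2 also called 0. At an unadjusted p under 0.05 there were 8, 10 and 3 member peaks for fulvestrant, raloxifene and tamoxifen, where 3.96%, 3.81% and 4.13% of all tested peaks passed that level. In 7 member peaks every fulvestrant library was below every complete vehicle library (3.8%, against 1.68% of all tested peaks). In 2 every one was above (1.09%, against 0.927%). For raloxifene 3 were below (1.63%, against 1.35%) and 1 above (0.543%, against 1.39%). For tamoxifen 2 were below (1.09%, against 1.39%) and 1 above (0.543%, against 1.38%). The shallow fulvestrant replicate 4 enters the fulvestrant counts. The FOS lead peak had 24.3, 26.8, 17.0 and 9.42 CPM with fulvestrant, 26.2, 29.3, 26.9 and 29.2 CPM with raloxifene and 30.1, 22.1, 22.4 and 27.6 CPM with tamoxifen, against 24.3, 26.4, 29.1 and 28 CPM with complete vehicle. Only fulvestrant replicates 3 and 4 were below the others, and replicate 4 is the shallow library. The EGR1 lead peak had 52.2, 53.0, 52.7 and 12.6 CPM with fulvestrant, 51.7, 53.8, 53.9 and 61.1 CPM with raloxifene and 63.0, 58.8, 47.7 and 58.4 CPM with tamoxifen, against 54.2, 48.3, 59.8 and 50.5 CPM with complete vehicle. All but the shallow fulvestrant library overlapped.

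The log2 fold change over complete vehicle ran from -0.24 (FOS) to 0.17 over the 10 lead peaks for fulvestrant, from -0.083 to 0.089 for raloxifene and from -0.23 (MAFF) to 0.093 for tamoxifen. Without fulvestrant replicate 4 the fulvestrant range was -0.21 to 0.16. Without the complete vehicle libraries whose treatment entry names fulvestrant, the ranges were -0.15 to 0.21 for fulvestrant, -0.045 to 0.15 for raloxifene and -0.12 to 0.16 for tamoxifen, and again none was called. The sums over 50 kb gave the narrowest limits: over the 10 genes and 3 antagonists the log2 fold changes lay between -0.10 and 0.089, and their 95% intervals between -0.22 and 0.18. Without the libraries with the conflicting label the 30 log2 fold changes lay between -0.13 and 0.13 and their 95% intervals between -0.28 and 0.24. Over all tested member peaks the median log2 fold change of fulvestrant was -0.060, against -0.0098 over all tested peaks. It was -0.033 (against -0.0042) without fulvestrant replicate 4 and 0.039 (against 0.00075) within replicates 1 and 2. Within replicates 3 and 4, which hold the shallow and the conflicting libraries, it was -0.21 (against -0.044), so the replicate sets differed in sign. The medians of raloxifene and tamoxifen were 0.039 and 0.023 (against -0.00017 and 0.0023). That of tamoxifen was 0.10 within replicates 1 and 2 and -0.090 (against -0.012) within replicates 3 and 4. That of raloxifene was 0.074 and 0.0086 in the same sets. At the MAFF peak that estradiol raised, 6.475 kb from the gene, no antagonist difference was called. It had 22.9, 22.7, 21.6 and 1.57 CPM with fulvestrant, 23.8, 23.1, 20.7 and 25.2 CPM with raloxifene and 24.8, 23.3, 15.1 and 22.6 CPM with tamoxifen, against 21.3, 16.4, 19.8 and 18.7 CPM with complete vehicle.

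Fulvestrant is a steroid built on estradiol with a long side chain, raloxifene a benzothiophene and tamoxifen a triphenylethylene. The 3 pairs were compared at 100 nM and 1 h and 0 of 184 member peaks were called in any pair: fulvestrant over raloxifene (0% of all tested peaks higher, 0.000638% lower), fulvestrant over tamoxifen (0% and 0%) and raloxifene over tamoxifen (0% and 0%). There were 11, 5 and 7 member peaks at an unadjusted p under 0.05, where 5.16%, 5.27% and 3.92% of all tested peaks passed. In 10 member peaks every fulvestrant library, the shallow replicate 4 included, was below every raloxifene library (5.43%, against 2.46% of all tested peaks). In 1 every one was above (0.543%, against 1.19%). For fulvestrant over tamoxifen 6 were below (3.26%, against 2.12%) and 2 above (1.09%, against 1.1%). For raloxifene over tamoxifen 2 were below (1.09%, against 1.35%) and 3 above (1.63%, against 1.32%). The smallest p was at a FOSB region 22.0 kb downstream, nearest to RTN2 (chr19:45496942-45497323). It had 15.1, 15, 13.6 and 4.71 CPM with fulvestrant and 20.7, 19.4, 22.4 and 20.2 CPM with raloxifene, which did not overlap (log2 fold change -0.52, SE 0.14, edgeR adjusted p = 0.964). Over the 10 genes and 3 pairs, the log2 differences of the 50 kb sums lay between -0.097 and 0.079 with 95% intervals from -0.19 to 0.20.

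Across the 6 groups the 50 kb sums kept a narrow range. Their coefficient of variation over the 24 libraries was 4.16% to 10.9% for the 10 genes, where the median over all neighbourhoods was 8.80%. At MAFF estradiol stood alone at the top: the estradiol mean was 103 ± 2.50 CPM, the next group was raloxifene with 92.4 ± 3.96 CPM (SD, n = 4 each), and no library of the 2 overlapped. At EGR3 starved vehicle stood alone at the bottom, with 30.1 ± 1.41 CPM, below estradiol with 36.8 ± 1.17 CPM, and the 4 complete-medium groups, at 38.2 to 41.2 CPM, each overlapped their neighbours in order. At FOS the starved-medium groups led, with 157 ± 6.92 CPM for estradiol and 153 ± 3.17 CPM for starved vehicle, and no starved vehicle library overlapped complete vehicle at 144 ± 4.72 CPM. At the other 7 genes every group overlapped the next in order.

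The gene neighbourhood on another chromosome whose 50 kb sum tracked each member best over the 24 libraries is given as a description, since all sums share the depth and the media of the same libraries. The highest Pearson r was 0.945, of EGR3 with FSIP1, then 0.932 of FOS with NUDT21, 0.925 of FOSL2 with PCYT1B, 0.915 of JUN with LARP1B and 0.914 of EGR1 with GON7. MAFF matched CYP2A6 best at 0.887, FOSL1 matched H2AC18 at 0.870, FOSB matched SLC26A8 at 0.857, ATF3 matched STARD13 at 0.844 and JUNB matched KCNK4 at 0.824.

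Some member peaks separated replicates 3 and 4 of each group from replicates 1 and 2, and the labels name no batch. With the 6 groups in the same edgeR fit, 11 of 184 member peaks were lower in replicates 3 and 4 (5.98%, against 4.25% of all tested peaks) and 1 was higher (0.543%, against 1.95%). The higher count was 0 without raloxifene replicate 4 or starved vehicle replicate 4 and 2 without complete vehicle replicate 1. The clearest was a region 0.82 kb beyond JUN (chr1:58779872-58780072; log2 difference -1.34, SE 0.20, edgeR adjusted p = 1.50e-07). In starved vehicle it had 1.20 and 1.55 CPM in replicates 3 and 4, against 6.57 and 3.36 CPM in replicates 1 and 2, and in complete vehicle 0.823 and 1.17 CPM, against 3.24 and 3.64 CPM. The ATF3 region that differed between the media was also lower in replicates 3 and 4 (log2 difference -0.80, edgeR adjusted p = 7.53e-08), as was the EGR3 peak 45.9 kb away (-0.20, edgeR adjusted p = 0.0450). Of the 12 peaks, 4 lay near JUN and 4 near ATF3.

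Among 363 tested peaks near 26 other immediate early genes, 4 were higher with estradiol (1.1%, against 0.813% of all tested peaks) and 0 lower. They lay near KLF10 (47.7 kb away, log2 fold change 1.07, edgeR adjusted p = 5.61e-10, and 31.7 kb away, 0.60, edgeR adjusted p = 0.0482), a TGF-beta-induced repressor, GADD45B (46.9 kb, 1.36, edgeR adjusted p = 4.77e-08), a stress gene, and DUSP4 (1.40, edgeR adjusted p = 0.00560), a phosphatase that switches off ERK kinases. Near AP-1 partners and inhibitors 1 of 232 was higher (0.431%), at JDP2 (33.9 kb, 0.80, edgeR adjusted p = 0.0113), a repressor that pairs with JUN. Near the kinases and SRF-family factors upstream of these genes 2 of 273 were higher (0.733%), both at EGFR, and near AP-1 and EGR target genes 0 of 160. None of these 4 lists had a lower peak, and the partners' list shares 4 peaks with the members. Peaks near known estrogen-induced genes were called higher in 30 of 286 (10.5%) and lower in 0, with a median log2 fold change of 0.31, against the 0.030 of the member peaks.

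Between the vehicle groups, 10.7% of the peaks of the other immediate early genes were higher in complete vehicle and 8.26% lower, where 7.93% and 9.91% of all tested peaks were. The shares were 6.9% and 9.91% for partners and inhibitors, 7.33% and 9.52% for the upstream kinases and factors, 7.5% and 4.38% for the target genes and 39.2% and 2.45% for the estrogen-induced genes. The last list was thus the one with calls nearly all in 1 direction, whereas the member peaks and the other lists had calls in both. In none of the 5 lists was a peak called with an antagonist.

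The limit of 50 kb was a choice. Estradiol log2 fold changes of the peaks on either side of it are given for EGR3, FOSL2, FOSB and MAFF, without calls for the outside peaks. The outermost EGR3 peak inside it, at 45.9 kb, had a log2 fold change with estradiol of 0.67, and the first one outside, at 50.4 kb (chr8:22743767-22744048), one of 1.01. At FOSL2 the outermost inside, at 46.1 kb, had 0.87 and the first outside, at 50.2 kb, had 1.31. At FOSB the values were 0.14 at 48.7 kb inside and 0.25 at 51.2 kb outside, and at MAFF 0.39 at 47.7 kb inside and 0.079 at 56.5 kb outside. The remaining genes were flat or lower on at least 1 side, or lacked a value. JUN had -0.86 inside and -0.23 outside, FOSL1 -0.33 and 0.073, and EGR1 -0.053 and 0.042. ATF3 had 0.066 inside and -0.050 outside, and JUNB 0.076 and 0.0040. FOS had 0.37 inside and no value outside.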

How the data were processed

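The 24 ATAC-seq libraries of T47D cells were analysed from a table of raw counts per peak deposited by the authors, 4 libraries in each of 6 groups. Per the submitters' processing notes, cutadapt 1.8.1, Bowtie2 2.4.4, SAMtools 1.9 and hg38 were used; the sources used here do not give the peak caller or the counting rule, nor whether starts count from 0 or 1, so coordinates are printed as in the table.

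Peaks were assigned to genes by midpoint within 50 kb of the RefSeq gene interval (GRCh38.p14), and the members and gene lists were chosen with earlier results of these data known. Peaks passed a filter on low counts (edgeR filterByExpr, minimum count 10, minimum total 15), which kept 156745. All 24 libraries entered 1 edgeR 4.0.16 quasi-likelihood fit (R 4.3.3, limma 3.58.1) of 6 group means with TMM factors, tested two-sided with Benjamini-Hochberg adjustment over all tested peaks at 0.05. The SE is the size of the log2 fold change over the square root of F, and 95% intervals use 18 degrees of freedom. Counts summed over 50 kb were tested likewise over 19687 protein-coding genes, whose sums share peaks. CPM values are counts set to a common total after TMM scaling. Named peaks are the lead peak of each gene, every peak called with estradiol or an antagonist, the called peak with the smallest p in each direction between media, and the smallest uncalled p. The FOS regions 11.6 and 19.7 kb upstream and the peaks that differ between replicates were chosen after their values were seen.

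Alternatives were other scalings, no filter, DESeq2 1.42.0, edgeR's older fit, windows of 10 and 100 kb, each replicate left out, both shallow and both conflicting libraries left out, the replicate number as a block and each set of replicates alone. The counts of each of the 36 pairs of libraries within a group differed beyond sampling noise, with 1.72 to 4.31 as the chi-square over its degrees of freedom, and all were kept as separate. The edgeR fits of peaks and of 50 kb sums were checked on simulated counts. The check covered estradiol over starved vehicle and fulvestrant over complete vehicle. It used the same spread for every peak and no difference between replicate sets, so it does not cover the other tests. Counting error alone limits peaks with few reads, and reads without molecular identifiers are not independent molecules. One list of cell type markers is not reported here.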

Additional observations from a re-analysis of the deposited data

Results flagged for a closer look

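Samples of a group were compared at 318 sets of 4 values, for the member peaks named above and the 50 kb sums, and 20 held a library set apart from the other 3 by more than the 95% limit of Dixon's test; chance alone flags about 1 in 20 groups. No other kind of result was picked out.

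In fulvestrant 6 were the shallow replicate 4. It was low at the JUNB lead peak (7.85 CPM, the others 20.1 to 21.5), the EGR1 lead peak (12.6 CPM, the others 52.2 to 53.0), a JUN peak 1.18 kb from the gene (1.57 CPM, the others 13.1 to 14.9) and the MAFF peak that estradiol raised (1.57 CPM, the others 21.6 to 22.9). It was high at a FOSB peak 24.4 kb away (9.42 CPM, the others 2.83 to 3.82) and at an EGR3 peak 3.31 kb away (9.42 CPM, the others 1.65 to 2.96). At 1.57 CPM for each count these are 1 to 8 counts.

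In raloxifene replicate 4 was high at the JUNB lead peak (23.7 CPM, the others 21.8 to 22.0), the JUNB peak 32.5 kb away (5.19 CPM, the others 3.21 to 3.49), replicate 3 was high at the FOSB peak 24.4 kb away (3.95 CPM, the others 2.88 to 3.00), and 1 library was low at a JUN peak 27.4 kb away (5.12 CPM, the others 9.18 to 9.83). In tamoxifen 1 library was high at the same JUN peak (11.8 CPM, the others 7.23 to 7.77). In complete vehicle replicate 2 was high at the EGR3 peak 41.5 kb away (6.76 CPM, the others 3.19 to 3.36), and 1 library was low at the JUNB peak 32.5 kb away (1.61 CPM, the others 3.19 to 3.46).

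With estradiol replicate 2 was high in the JUN sum (67.1 CPM, the others 60.5 to 61.5) and replicate 4 in the MAFF sum (107 CPM, the others near 102). Single libraries were high at the EGR3 lead peak (5.33 CPM, the others 2.7 to 3.00), a FOSB peak 48.7 kb away (26.6 CPM, the others 19.9 to 21.0) and the FOSL2 peak 14.7 kb upstream (5.10 CPM, the others 3.75 to 3.86). The lowest stood apart at the ATF3 lead peak (60.7 CPM, the others 65.9 to 66.6) and at the EGR3 peak 41.5 kb away (1.13 CPM, the others 2.13 to 2.24).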

How the results depend on the processing

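With estradiol over starved vehicle, the 4 higher member peaks became 2 within replicates 1 and 2, 1 within replicates 3 and 4 and 2 within 10 kb, and 2 to 4 with any replicate left out. For complete over starved vehicle the higher count was 13 within replicates 1 and 2, 7 within replicates 3 and 4, 4 within 10 kb and 36 within 100 kb, and the lower count 4 within replicates 3 and 4, 6 with DESeq2, 5 within 10 kb and 17 within 100 kb; with any replicate left out they were 14 to 22 and 6 to 11. For estradiol over complete vehicle the higher count was 7 and 6 within the 2 sets of replicates, 6 without the conflicting libraries and 9 within 10 kb, and the lower count 7, 6 and 8 under the first 3 settings, 9 with DESeq2, 3 within 10 kb and 27 within 100 kb, with 10 to 14 and 10 to 15 when a replicate was left out. For replicates 3 and 4 over 1 and 2 the counts were 0 higher and 5 lower within 10 kb, 4 and 18 within 100 kb, and 0 to 2 and 8 to 12 with a replicate left out. The antagonist counts stayed at 0 in every setting run.

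Of the 50 kb sums, 1 gene in place of 2 was called with estradiol within either set of replicates, within 10 kb or within 100 kb, and 1 to 2 with a replicate left out. For complete over starved vehicle, 2 genes were higher in place of 1 with the replicate block, with the replicate set added as a term, without the conflicting libraries and within 100 kb, and 0 within 10 kb; 0 were lower within replicates 3 and 4, and 1 without the conflicting libraries or within 10 kb, with 1 to 2 in both directions when a replicate was left out. For estradiol over complete vehicle 0 genes were higher without the conflicting libraries and 1 within 100 kb, and 0 were lower within replicates 3 and 4, without the conflicting libraries, within 10 kb and within 100 kb, with 1 to 3 and 0 to 1 when a replicate was left out. The EGR3 sum with estradiol reversed within 10 kb, to -0.00656. Some of these settings hold fewer samples or peaks, and the cause of these changes was not tested.

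The replicate numbers did not pair the libraries: deviations of same-numbered libraries correlated at -0.14 to 0.16, with 9 of 36 pairs over 0.1. With the replicate number as a block, 4 member peaks were higher with estradiol and 0 lower, 23 and 11 differed between the vehicles, and 17 and 17 between estradiol and complete vehicle. Depth limits single peaks: those near 1 CPM rest on few counts, and in fulvestrant replicate 4 a peak below 1.57 CPM could not be seen.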
